A study of Mus musculus with 36 samples.

Results

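The genes examined were 8 that define a macrophage: the surface markers and receptors Adgre1, Csf1r, Itgam and Cd14, and the transcription factors Spi1, Maf, Cebpa and Cebpb. They were chosen by name, each matched 1 row of the table of 54532 genes, and all 8 passed the filter on low counts in every comparison. The rule used no measured value, but the 8 genes were chosen with earlier results of these data known.

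The study asked how CCM (Core Circadian Modulator), a small molecule that binds the PASB domain of the clock protein BMAL1, changes the gene expression of macrophages at rest and after an inflammatory stimulus. RNA-seq was performed on bone marrow-derived macrophages (BMDMs) of female C57BL/6 mice aged 13 to 17 weeks, grown for 7 days with MCSF and 20% serum. WT cells carried Bmal1 flox/flox alleles without Cre (n = 3 replicates per treatment). KO cells carried the same floxed alleles with LysM-Cre (n = 6 replicates per treatment), so the deletion depends on Cre made from the myeloid Lyz2 gene. The 4 treatments of each genotype lasted 6 h and were vehicle (DMSO), CCM at 100 µM, LPS at 100 nM, and the combination of these, so that 36 libraries fell into 8 groups. LPS is a component of the outer membrane of Gram-negative bacteria. The labels do not say whether a replicate number stands for 1 mouse, so p-values measure the spread between these samples.

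Macrophages arise from marrow progenitors when PU.1, the product of Spi1, and the C/EBP factors open and hold the myeloid gene program. Csf1r, the receptor of MCSF, is among the genes this program switches on, and MCSF in turn keeps the cells alive and differentiated in culture. When LPS reaches the cell, CD14 passes it to the TLR4 complex, and the NF-kappaB and MAP kinase pathways below TLR4 rewrite much of the transcriptome within hours. c-Maf, the product of Maf, is known in macrophages for restraining self-renewal and for expression of anti-inflammatory genes such as Il10.

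Read pairs counted on genes were 13469262 to 28288923 per library. The 4 libraries of KO replicate 6 stood apart from the other 32. They held 15993 to 17308 genes with a count, against 19375 to 21624 in the others, and 0.255% to 0.449% of their counts lay on mitochondrial genes, against 0.754% to 1.57%. The main values of the 8 genes that rest on KO libraries are therefore also given without this replicate, singly or as a range, and counts over listed genes in KO include it. Bmal1 (Arntl in the table) did not fully separate the genotypes at the level of the whole gene. Its CPM was 7.27 to 12.9 in WT and 2.13 to 10.7 in KO libraries, and 12 of the 24 KO libraries lay below every WT library. Genotype therefore rests on the labels. Of 18 further macrophage markers, all were detected in each WT library and in KO replicates 1 to 5, and at most 1 was at 0 in KO replicate 6. Over all treatments their summed level was 26434 to 37106 CPM in WT, 21598 to 36854 CPM in KO replicates 1 to 5 and 26344 to 33857 CPM in KO replicate 6, and the libraries with LPS were the lower ones in WT. Lyz2, the gene from which Cre is made in KO, is among the 18. Its CPM was 10400 to 15100 in WT and 5910 to 14700 in KO libraries, and its part in the lower KO sums was not tested.

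Promoter sequence from RefSeq on build GRCm38.p6 was matched for 3 of the 8 genes (Itgam, Cebpa and Cebpb). The 250 bases upstream of each start are printed in lower case, on the strand of the gene. These 3 genes are shown because their promoters were matched, and their response to LPS played no part in the choice. Capitals mark the core of the PU.1 site, GAGGAA or its reverse complement TTCCTC. The windows are chr7:128062390-128062639 for Itgam, chr7:35119043-35119292 for Cebpa and chr2:167688665-167688914 for Cebpb, all on the plus strand.
Itgam: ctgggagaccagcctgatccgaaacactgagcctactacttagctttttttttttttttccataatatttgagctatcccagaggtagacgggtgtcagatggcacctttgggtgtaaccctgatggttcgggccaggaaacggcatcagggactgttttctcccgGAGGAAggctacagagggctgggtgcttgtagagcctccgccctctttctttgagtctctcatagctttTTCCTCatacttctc
Cebpa: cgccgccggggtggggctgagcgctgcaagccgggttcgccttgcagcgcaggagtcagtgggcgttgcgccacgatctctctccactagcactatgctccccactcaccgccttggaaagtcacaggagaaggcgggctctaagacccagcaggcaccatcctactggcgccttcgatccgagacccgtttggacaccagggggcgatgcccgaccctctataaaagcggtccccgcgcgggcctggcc
Cebpb: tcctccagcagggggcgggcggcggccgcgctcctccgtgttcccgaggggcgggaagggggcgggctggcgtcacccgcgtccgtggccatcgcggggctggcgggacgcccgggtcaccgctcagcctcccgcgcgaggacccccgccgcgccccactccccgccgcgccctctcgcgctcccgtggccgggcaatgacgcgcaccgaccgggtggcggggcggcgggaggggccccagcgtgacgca
The Itgam window held 2 PU.1 cores, 1 on each strand, 84 and 15 bases before the start. A PU.1 core was present in 23.3% of 32851 windows of the same length in the table. The Cebpa and Cebpb windows held none, and no window of the 3 held the C/EBP site TTGCNNAA (9.56% of all windows), the E-box CACGTG (6.02%), which BMAL1 and CLOCK bind, or the kappaB site GGANTTTCC (1.07%), each searched on both strands, and no 2 matches overlapped. GC content was 49.6% in the Itgam window, 66.4% in the Cebpa window and 81.6% in the Cebpb window.

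In unstimulated WT macrophages the 8 genes spanned a wide range of levels. Levels are CPM, each library's counts brought to a common size with TMM factors, and levels of different genes are compared as CPM per kb of gene length. Csf1r stood highest, at 413.0 ± 16.1 CPM per kb (SD, n = 3). Adgre1 (234.2 ± 3.59), Cd14 (213.5 ± 26.9) and Cebpa (197.5 ± 22.3 CPM per kb) followed, and each of these overlapped its neighbour in the order. Spi1 (159.5 ± 16.4) and Cebpb (128.8 ± 10.2 CPM per kb) lay below them without overlap. Itgam (23.2 ± 0.898) and Maf (18.6 ± 0.358 CPM per kb) were the lowest, also without overlap. After LPS in WT the order was Cd14 (1539 ± 62.7), Adgre1 (653.6 ± 35.6), Cebpb (429.1 ± 43.6), Spi1 (356.8 ± 17.9), Csf1r (335.0 ± 6.70), Maf (37.0 ± 3.67), Cebpa (26.3 ± 1.57) and Itgam (18.8 ± 1.92 CPM per kb), and no neighbours overlapped. Cebpa thus moved from the fourth place to the seventh, and Cd14 from the third to the first.

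**Figure D1:**
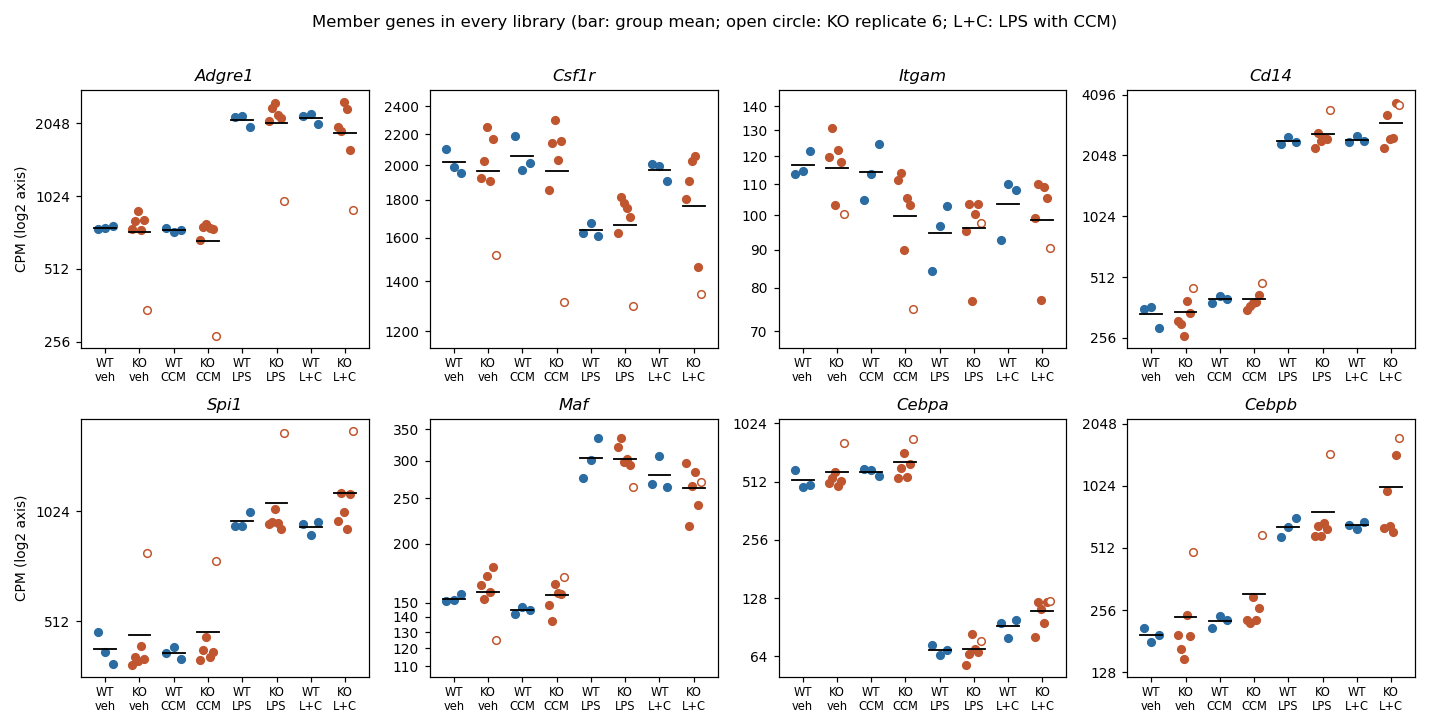
CPM of the 8 genes on log2 axes, 1 panel per gene, in every library of the 8 groups (WT blue, n = 3; KO orange, n = 6; open circle, KO replicate 6; black bar, group mean). Adgre1, Cd14, Spi1, Maf and Cebpb are higher and Cebpa is lower in the LPS groups than in the groups without LPS of both genotypes, whereas the changes of Csf1r and Itgam are small.

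LPS changed all 8 genes in WT macrophages. By edgeR's quasi-likelihood test with Benjamini-Hochberg adjustment and a threshold of 0.05, Adgre1, Cd14, Spi1, Maf and Cebpb rose (5 of 8) and Csf1r, Itgam and Cebpa fell (3 of 8). Of all genes tested in this comparison 63% were called, 30.6% as higher and 32.4% as lower, so a call alone says little about these genes and the sizes carry the description. The median log2 fold change was 1.08 over the 8 genes and -0.05 over all 14501 genes tested. In KO macrophages 7 of the 8 were called, the same 5 as higher and Itgam and Cebpa as lower, against 47.1% of all genes (22.4% higher, 24.7% lower). The counts of rises and falls in the gene lists below are to be read against the same shares of each genotype. Without KO replicate 6 all 8 were called, against 69.4% of all genes. In a fit of all 36 libraries, in which the KO spread enters, 5644 genes were called by LPS in WT in place of 9139, and 6 of the 8 members, as Csf1r (edgeR adjusted p = 0.169) and Itgam (0.105) lost their calls. In bulk RNA, fewer cells that express a gene and less RNA of it per cell cannot be told apart.

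Of the 18 further macrophage markers more fell than rose. By LPS in WT 5 of them rose and 11 fell, with a median log2 fold change of -0.34, and in KO 5 rose and 7 fell, with a median of -0.33. Their summed level in WT was 33420 to 37106 CPM with vehicle and 27492 to 28181 CPM with LPS, without overlap. The scavenger receptors Marco and Msr1 rose by 8.60 ± 0.29 and 1.88 ± 0.07 on the log2 scale in WT, and Fcgr1, which encodes a high-affinity Fc receptor, by 2.53 ± 0.11. The chemokine receptors Ccr2 and Cx3cr1 had log2 fold changes of -3.22 ± 0.16 and -1.55 ± 0.10, and the mannose receptor gene Mrc1 one of -0.83 ± 0.14.

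Csf1r, the receptor tyrosine kinase that binds MCSF and IL-34, fell slightly. It lies at chromosome 18, 61105572 to 61132149, on the plus strand in the coordinates of the table. Its CPM in WT libraries was 2106, 1993 and 1954 with vehicle and 1626, 1673 and 1610 with LPS. Every LPS library lay below every vehicle library. This was a log2 fold change of -0.30 ± 0.06 (SE; adjusted p = 0.00103 by edgeR). In KO libraries the lowest, median and highest CPM were 1519, 1975 and 2251 with vehicle and 1296, 1730 and 1812 with LPS. The groups overlapped only through KO replicate 6, which was the lowest of each, and the same-numbered LPS library was lower in 6 of 6 replicates. The log2 fold change in KO was -0.26 ± 0.11 with an edgeR adjusted p of 0.0852. It was called with the replicate number as a block (adjusted p = 0.000425 by edgeR, with 71.6% of all genes called) and without KO replicate 6 (-0.26 ± 0.06, adjusted p = 0.00173). Upper-quartile factors, total counts alone and voom with quality weights gave it a call too (adjusted p = 0.00528, 0.00466 and 0.000161), the first pair of these with log2 fold changes of -0.44 and -0.64. In the fit of all 36 libraries the WT value was not called.

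Around Csf1r, 13 genes of growth factor signalling were listed, of which 12 were tested in WT. LPS raised 7 and lowered 3 of them, with a median log2 fold change of 0.45 against -0.05 over all genes. Csf1, which encodes MCSF itself, rose by 0.88 ± 0.21 on the log2 scale (edgeR adjusted p = 0.00467). Adam17, a sheddase known to cleave the receptor from the cell surface, rose by 1.45 ± 0.06. Csf3, which encodes G-CSF, rose by 9.96 ± 0.29, and its receptor Csf3r by 1.32 ± 0.10. Inpp5d, which encodes the phosphatase SHIP, had a log2 fold change of -1.10 ± 0.06, and Tyrobp, the adaptor DAP12, one of -0.58 ± 0.08. Il34, the other ligand of Csf1r, had a log2 fold change of 0.18 ± 0.32 and was not called. In KO 11 were tested, of which 6 rose and 1 fell.

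Adgre1 encodes F4/80, an adhesion G protein-coupled receptor used as the standard surface marker of mouse macrophages. It lies at chromosome 17, 57358691 to 57483527, on the plus strand. With vehicle its CPM was 746, 760 and 769 in the WT libraries, and with LPS it was 2175, 2190 and 1984. The groups were far apart, and the mean rose 2.79-fold. WT macrophages had a log2 fold change of 1.49 ± 0.06 (edgeR adjusted p = 1.41e-08). In KO libraries it ranged from 346 to 890 CPM with vehicle (median 779) and from 982 to 2496 CPM with LPS (median 2194). KO replicate 6 was the lowest in each treatment, and even its LPS library lay above every KO vehicle library. In KO it changed by 1.49 ± 0.24 on the log2 scale (edgeR adjusted p = 0.00019) and 1.48 ± 0.07 without KO replicate 6. Of the 3 genes listed beside Adgre1, the related receptor Adgre4 rose by 1.33 ± 0.23 and Cd55 by 1.80 ± 0.29 on the log2 scale in WT. Adgre5, which encodes CD97, the receptor that binds CD55, had a log2 fold change of -2.40 ± 0.09 there. In KO the same 3 values were 1.54 ± 0.27, 1.69 ± 0.34 and -2.41 ± 0.12, and all were called in each genotype.

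Itgam encodes CD11b, the alpha subunit that pairs with the Itgb2 product to form the complement receptor Mac-1. It lies at chromosome 7, 128062640 to 128118491, on the plus strand, and its promoter window was the one with PU.1 cores. Its CPM in WT libraries was 114, 115 and 122 with vehicle and 84.1, 96.7 and 103 with LPS. The highest LPS library was below the lowest vehicle library, and the log2 fold change was -0.30 ± 0.08 (edgeR adjusted p = 0.00822). In KO libraries Itgam had 100 to 131 CPM with vehicle (median 119) and 76.7 to 103.5 CPM with LPS (median 99.0). These groups overlapped, though the LPS library was the lower in 6 of 6 same-numbered pairs. The log2 fold change in KO was -0.28 ± 0.10 (edgeR adjusted p = 0.0361), and -0.33 ± 0.09 without KO replicate 6 (adjusted p = 0.00395). In WT the call was lost in the fit of all 36 libraries. Leaving out any 1 of KO replicates 1 to 5 ended this call, with edgeR adjusted p-values of 0.0529 to 0.12.

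Among the integrin genes listed beside Itgam the changes were of unequal size. Of 13 genes tested in WT, 8 rose and 4 fell, with a median log2 fold change of 0.72. Icam1, the endothelial and leukocyte ligand of the Itgb2 integrins, rose by 5.08 ± 0.08 on the log2 scale, and the alpha subunits Itga5, Itga4 and Itgal by 2.24 ± 0.06, 2.07 ± 0.10 and 1.99 ± 0.07. Itga6 and Itgb5, subunits that bind laminin and vitronectin, had log2 fold changes of -2.45 ± 0.08 and -2.14 ± 0.07. Itgav, at -0.34 ± 0.06, and Fermt3, which encodes the integrin activator kindlin-3, at 0.42 ± 0.07, changed about as little as Itgam. Itgb2, the partner of Itgam, had a log2 fold change of 0.02 ± 0.06 and was not called (edgeR adjusted p = 0.76). In KO 7 rose and 3 fell.

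Cd14 encodes the anchored co-receptor that hands LPS to the TLR4 complex, and it rose more than the other 7 genes in each genotype. It lies at chromosome 18, 36725074 to 36726736, on the minus strand in the coordinates of the table. The WT libraries had 356, 364 and 287 CPM with vehicle and 2338, 2529 and 2391 CPM with LPS. The mean rose 7.21-fold in WT, with a log2 fold change of 2.86 ± 0.09 (edgeR adjusted p = 2.2e-09). In KO libraries it ranged from 261 to 453 CPM with vehicle (median 325) and from 2237 to 3456 CPM with LPS (median 2478). KO replicate 6 was the highest of each group. KO macrophages had a log2 fold change of 2.93 ± 0.17 (edgeR adjusted p = 1.36e-08) and 2.92 ± 0.10 without KO replicate 6. Of 9 genes that act beside Cd14, 5 rose and 1 fell in WT, with a median log2 fold change of 0.58. The receptors Tlr2, Tlr1 and Tlr6, which together sense bacterial lipoproteins, rose by 3.68 ± 0.06, 3.08 ± 0.06 and 2.11 ± 0.07 on the log2 scale, and Ly96, which encodes the MD-2 subunit, by 0.90 ± 0.12. Tlr4 itself had a log2 fold change of -0.22 ± 0.09 and was not called (edgeR adjusted p = 0.0595). The scavenger receptor Cd36 fell by 0.59 ± 0.08 on the log2 scale. In KO 4 rose and 1 fell.

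Spi1 encodes PU.1, the ETS factor on which macrophage identity depends, and it rose. It lies at chromosome 2, 91082390 to 91115756, on the plus strand. In WT libraries Spi1 had 478, 421 and 391 CPM with vehicle and 935, 932 and 1017 CPM with LPS. The groups did not overlap, and the log2 fold change was 1.17 ± 0.08 (edgeR adjusted p = 5.21e-07). In KO libraries Spi1 had 389 to 787 CPM with vehicle (median 406) and 917 to 1678 CPM with LPS (median 953). KO replicate 6 was the highest of each group by a wide margin. KO macrophages had a log2 fold change of 1.19 ± 0.23 (edgeR adjusted p = 0.000641) and 1.22 ± 0.05 without KO replicate 6. Of 10 other ETS factors tested in WT, 5 rose and 2 fell, with a median log2 fold change of 0.53. Spic, the relative of Spi1 known from red pulp macrophages, rose by 3.70 ± 0.15 and Ets2 by 2.71 ± 0.10 on the log2 scale, whereas Fli1 fell by 1.06 ± 0.07. In KO 9 were tested, of which 4 rose and 1 fell.

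Cebpa and Cebpb, which encode C/EBP factors that bind the same sequence, moved in opposite directions. Cebpa, the factor of myeloid commitment, lies at chromosome 7, 35119293 to 35121928, on the plus strand. Its CPM in WT libraries was 588, 479 and 495 with vehicle and 73.5, 65.2 and 69.0 with LPS. The mean was 7.52-fold lower with LPS in WT, with a log2 fold change of -2.91 ± 0.09 (edgeR adjusted p = 1.45e-09). In KO libraries Cebpa had 489 to 815 CPM with vehicle (median 527) and 57.5 to 83.6 CPM with LPS (median 68.3). No LPS library of either genotype came near a vehicle library. In KO Cebpa changed by -3.04 ± 0.16 on the log2 scale (edgeR adjusted p = 4.27e-09) and -2.95 ± 0.09 without KO replicate 6.

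Cebpb, known as the C/EBP factor that inflammatory signals induce, lies at chromosome 2, 167688915 to 167690418, on the plus strand. Its CPM in WT libraries was 209, 179 and 193 with vehicle and 581, 644 and 712 with LPS. The mean rose 3.33-fold, with a log2 fold change of 1.74 ± 0.09 (edgeR adjusted p = 6.11e-08). In KO libraries Cebpb had 148 to 487 CPM with vehicle (median 192) and 583 to 1455 CPM with LPS (median 644). The vehicle library of KO replicate 6 lay between the other vehicle libraries and the LPS libraries. In KO Cebpb changed by 1.68 ± 0.34 on the log2 scale (edgeR adjusted p = 0.00106) and 1.72 ± 0.11 without KO replicate 6. Per kb, the level of Cebpa in WT was above that of Cebpb with vehicle (197.5 against 128.8 CPM per kb) and below it with LPS (26.3 against 429.1 CPM per kb).

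Of 7 further genes of the C/EBP family and its regulators, 1 rose and 2 fell in WT, with a median log2 fold change of 0.04. Cebpd, which is also known as an acute phase factor, rose by 1.96 ± 0.12 on the log2 scale. Cebpg and Cebpz had log2 fold changes of -0.73 ± 0.08 and -0.42 ± 0.06. Trib1, a pseudokinase known to direct C/EBP alpha protein to degradation, had a log2 fold change of 0.04 ± 0.14 and was not called (edgeR adjusted p = 0.808). In KO 1 rose and 3 fell, the additional call being Cebpe at -0.97 ± 0.33.

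Maf, which encodes the large bZIP factor c-Maf, rose. It lies at chromosome 8, 115682942 to 115707794, on the minus strand. In WT libraries Maf had 151, 152 and 156 CPM with vehicle and 276, 301 and 336 CPM with LPS. The groups did not overlap, and the log2 fold change was 0.997 ± 0.07 (edgeR adjusted p = 1.34e-06). In KO libraries Maf had 125 to 178 CPM with vehicle (median 161) and 265 to 336 CPM with LPS (median 301). In KO Maf changed by 0.93 ± 0.09 on the log2 scale (edgeR adjusted p = 2.97e-06) and 0.90 ± 0.06 without KO replicate 6. KO replicate 6 was the lowest library of each of these groups, less far from the others than it was for Adgre1 or Csf1r.

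Of 7 listed MAF and BACH factors, 6 were tested in WT, where 4 rose and 2 fell with a median log2 fold change of 0.74. The small MAF factors Maff, Mafg and Mafk, which lack an activation domain, rose by 2.24 ± 0.16, 0.999 ± 0.08 and 0.47 ± 0.07 on the log2 scale. The repressors Bach1 and Bach2 fell by 0.61 ± 0.08 and 2.36 ± 0.32. In KO 4 rose and 1 fell. Of 20 other transcription factors of macrophages, 19 were tested in WT, 7 rose and 9 fell, with a median log2 fold change of -0.15. Pparg, known for lipid metabolism and alternative activation, had a log2 fold change of -4.01 ± 0.12, and Id3 one of -2.47 ± 0.14. Tfec rose by 2.76 ± 0.11 and Gfi1 by 3.91 ± 0.21 on the log2 scale. Irf8 and Runx1, which act with PU.1, had log2 fold changes of -0.15 ± 0.07 and -0.13 ± 0.05 and were not called.

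**Figure D2:**
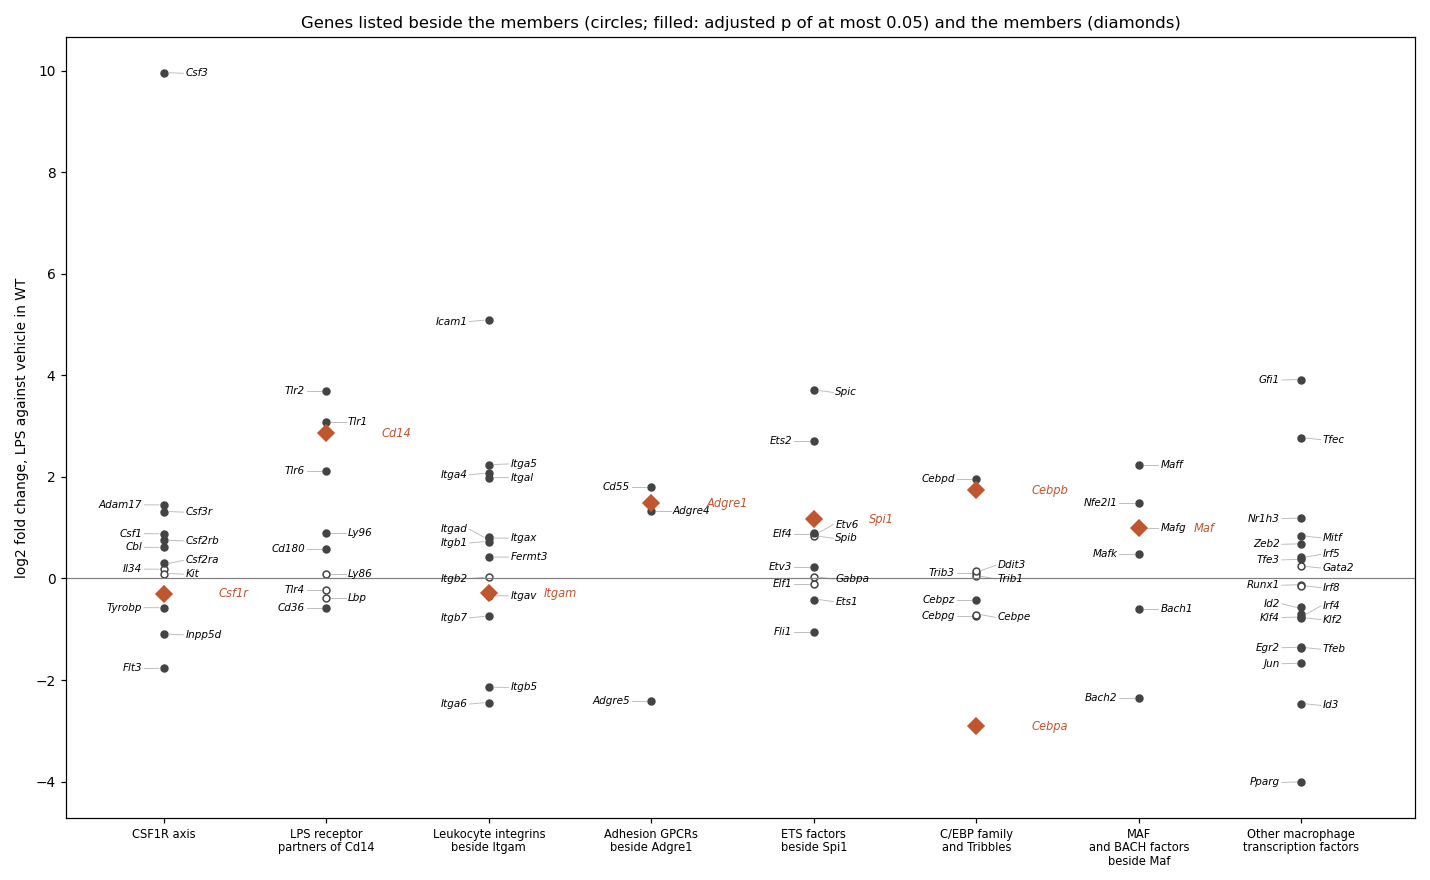
Log2 fold change by LPS in WT macrophages (vertical axis) of the genes listed beside each member, in 8 lists along the horizontal axis (circles; filled where the edgeR adjusted p was at most 0.05), with the members as diamonds. Cebpa at -2.91 lies below every listed gene of its family while Cebpb at 1.74 lies beside Cebpd at 1.96, and Maf at 0.997 lies beside Mafg at 0.999.

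The LPS response of the 8 genes was compared between the genotypes by an interaction term in a fit of the WT and KO libraries with vehicle and LPS. None of the 8 was called, and 0 of 15093 genes were (0%), with 112 genes at an unadjusted p under 0.05 by edgeR and 0 called by DESeq2. That threshold would give more genes than this without any difference, so the lack of calls does not show equal responses. The difference of the log2 fold changes (KO minus WT) was between -0.12 ± 0.22 for Cebpa and 0.09 ± 0.24 for Cd14. The 95% intervals were wide, from -0.73 to 0.77 for Adgre1 and from -1.07 to 0.995 for Cebpb, and the narrowest were those of Maf (-0.36 to 0.26), Itgam (-0.29 to 0.37) and Csf1r (-0.29 to 0.42). Differences of such sizes were therefore not detectable here. Without KO replicate 6 the SE of the difference for Adgre1 was 0.10 in place of 0.36, and for Cebpb 0.17 in place of 0.49. The differences without that replicate ran from -0.09 ± 0.10 for Maf to 0.07 ± 0.15 for Cd14, and again none was called.

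**Figure D3:**
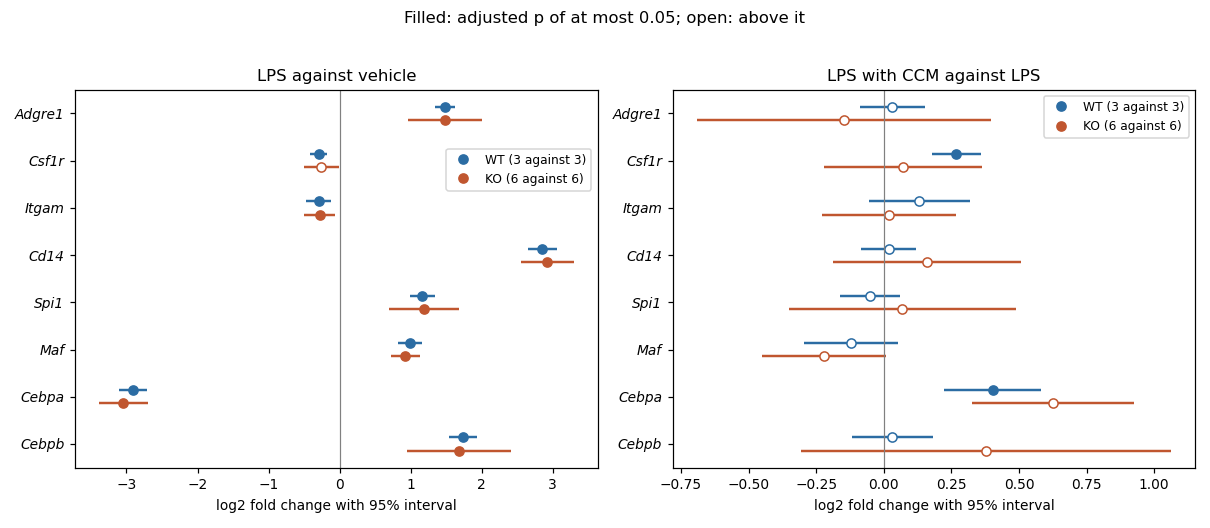
Log2 fold change with its 95% interval (horizontal axis) for the 8 genes, for LPS against vehicle on the left and for LPS with CCM against LPS on the right (WT blue, 3 against 3 libraries; KO orange, 6 against 6; filled, adjusted p of at most 0.05 by edgeR). The WT and KO values by LPS lie close together, for instance 2.86 and 2.93 for Cd14, and on the right only the WT values of Csf1r and Cebpa are filled.

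When CCM was added to LPS, Csf1r and Cebpa rose in WT macrophages, which is 2 of 8 genes, and the other 6 were not called. Of all 13579 genes tested 11.9% were called, 4.15% as higher and 7.78% as lower. That share moved with the libraries and the fit, as the 1621 calls became 893 without WT LPS+CCM replicate 2, 958 without WT LPS replicate 2, 3220 with a replicate block and 17 in a fit of all 36 libraries. The median log2 fold change was 0.03 over the 8 genes and 0.01 over all genes tested. This comparison shares its LPS libraries with the comparison of LPS against vehicle, so a library that lies low in LPS alone moves both values, and they are given side by side only. Csf1r had 1626, 1673 and 1610 CPM with LPS and 2006, 1997 and 1905 CPM with LPS and CCM. All 3 libraries with CCM lay above all 3 without it, and 2 of them lay within the range of the vehicle libraries (1954 to 2106 CPM). The log2 fold change of Csf1r was 0.27 ± 0.04 (edgeR adjusted p = 0.00216), beside -0.30 ± 0.06 for LPS against vehicle.

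Cebpa had 73.5, 65.2 and 69.0 CPM with LPS and 95.1, 80.03 and 98.8 CPM with LPS and CCM in WT. These groups did not overlap either, and both stayed far below the vehicle libraries (479 to 588 CPM). The log2 fold change of Cebpa was 0.40 ± 0.08 (edgeR adjusted p = 0.00997), beside -2.91 ± 0.09 for LPS against vehicle. Without WT LPS replicate 2, which was the lowest of its group, the edgeR adjusted p was 0.0533 and the log2 fold change 0.36. In a fit of all 36 libraries, in which the spread of the KO libraries enters, neither Csf1r nor Cebpa was called (edgeR adjusted p = 1 and 0.909).

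The other 6 genes had small differences by CCM under LPS in WT. Itgam had a log2 fold change of 0.13 ± 0.08 with a 95% interval of -0.06 to 0.32 (edgeR adjusted p = 0.377). A block on replicate number gave it a call (adjusted p = 0.0327 by edgeR) together with 23.7% of all genes, and the library with CCM was the higher in 3 of 3 same-numbered pairs. The 95% intervals of the log2 fold changes were -0.08 to 0.12 for Cd14, -0.09 to 0.15 for Adgre1, -0.16 to 0.06 for Spi1, -0.12 to 0.18 for Cebpb and -0.29 to 0.05 for Maf. Each of these intervals includes 0, and that of Maf is the widest.

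In KO macrophages none of the 8 genes was called for CCM under LPS, and 0.112% of 13386 genes were. At an unadjusted p under 0.05 edgeR gave 1070 genes, and Cebpa was among them. The edgeR count of 15 genes became 180 by DESeq2, 777 with a replicate block, 170 without KO replicate 6 and 0 to 7 without another replicate. Cebpa had 57.5 to 83.6 CPM with LPS (median 68.3) and 80.4 to 123 CPM with LPS and CCM (median 118). The groups overlapped by the lowest library with CCM and the highest without, and the library with CCM was the higher in 6 of 6 same-numbered pairs. The log2 fold change was 0.63 ± 0.14 with a 95% interval of 0.33 to 0.93 (edgeR adjusted p = 0.101). Without KO replicate 6 it was 0.64 ± 0.13 and was called (edgeR adjusted p = 0.0425), when 1.27% of all genes were, and DESeq2 called it with all 6 replicates (adjusted p = 0.00416). Csf1r had 1296 to 1812 CPM with LPS (median 1730) and 1345 to 2059 CPM with LPS and CCM (median 1855) in KO. The libraries overlapped, and the log2 fold change of Csf1r was 0.07 ± 0.14 (edgeR adjusted p = 0.9) with a 95% interval of -0.22 to 0.36, which includes the value in WT. Without KO replicate 6 it was 0.09 ± 0.10 (edgeR adjusted p = 0.619), and those of the 6 members other than Csf1r and Cebpa were between -0.25 ± 0.10 for Maf and 0.46 ± 0.21 for Cebpb, none of them called.

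The LPS with CCM libraries of KO replicates 2 and 5 also lay apart from replicates 1, 3 and 4. Their mitochondrial shares, 0.891% and 0.754%, were below every WT library (0.959% and above). Cebpb had 642, 965, 650, 614, 1449 and 1737 CPM in KO replicates 1 to 6 with LPS and CCM, so that replicates 2, 5 and 6 were the high ones. Cd14 had 2239, 3231, 2469, 2487, 3718 and 3637 CPM in the same libraries and was high in the same 3. Without these 3 replicates the log2 fold change of Cebpb by CCM under LPS in KO was 0.05 ± 0.08 in place of 0.38 ± 0.32, that of Cd14 0.01 ± 0.08 in place of 0.16 ± 0.16, and that of Cebpa 0.46 ± 0.15 (edgeR adjusted p = 0.223). Csf1r had 0.19 ± 0.08 without them (edgeR adjusted p = 0.329). This fit was chosen after seeing the data. The 3 replicates left out held the highest Cebpb and Cd14 with LPS and CCM, so the smaller values of these genes say nothing further. The part of RNA quality in these values was not tested.

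**Figure D4:**
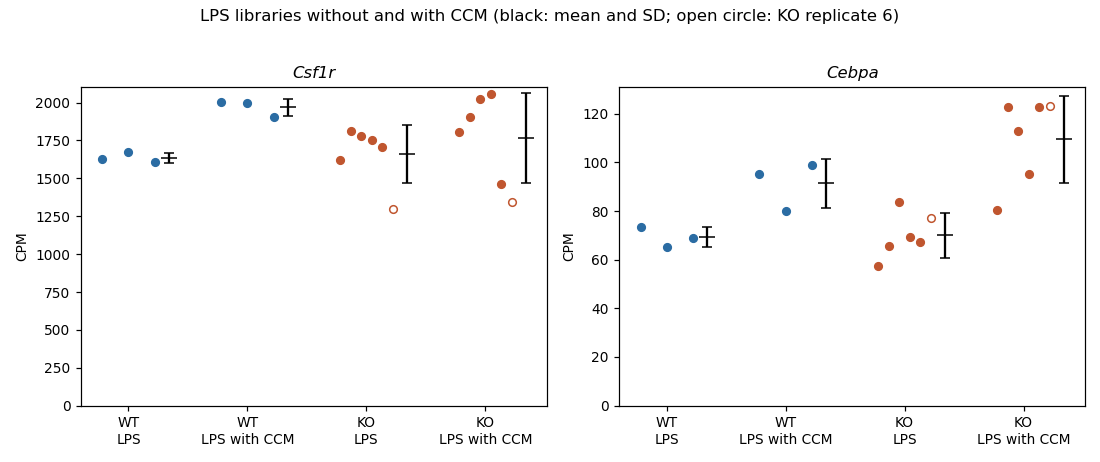
CPM of Csf1r (left) and Cebpa (right) from 0 upwards, in the LPS libraries without and with CCM of each genotype (points, libraries; open circle, KO replicate 6; black, mean and SD; WT n = 3, KO n = 6). In WT the points with CCM lie above those without for each gene, and in KO they overlap, with 5 of 6 pairs higher for Csf1r and 6 of 6 for Cebpa.

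The effect of CCM under LPS was not shown to differ between genotypes for any of the 8 genes. The interaction term called none of 14546 genes (0%), with 72 at an unadjusted p under 0.05 by edgeR and 0 called by DESeq2. Here too fewer genes lay under 0.05 than that threshold would give without any difference, so equal effects were not shown. The difference (KO minus WT) was -0.18 ± 0.19 for Csf1r, with a 95% interval of -0.58 to 0.22, and 0.24 ± 0.21 for Cebpa, with one of -0.20 to 0.68. Without KO replicate 6 these were -0.17 ± 0.13 and 0.25 ± 0.20. Whether CCM acts differently with LPS than without it was tested by a second interaction term. In WT none of the 8 was called, when 2.09% of 14747 genes were. These 308 calls became 174 without WT replicate 1, 0 without WT replicate 2, 8 without WT replicate 3 and 0 in a fit of all 36 libraries, with 1310 genes and 323 genes at an unadjusted p under 0.05 in the fits that called 0, and 696 by DESeq2. Csf1r had a difference of 0.24 ± 0.07 (edgeR adjusted p = 0.13), which DESeq2 called (adjusted p = 0.0322). In KO none of the 8 and 0.00685% of all genes (1 gene) were called, with 12 by DESeq2, 81 with a replicate block and 10 without KO replicate 6, and Cebpa had a difference of 0.47 ± 0.21, or 0.43 ± 0.16 without KO replicate 6.

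Among the genes listed beside the members, CCM under LPS in WT changed several. Only some of the called genes are named here, and the counts by list below include the others. The named genes are a selection, so their signs do not describe the lists. Maff and Mafk fell by 0.35 ± 0.09 and 0.21 ± 0.05 on the log2 scale, beside rises of 2.24 ± 0.16 and 0.47 ± 0.07 by LPS. Jun and Id3 had log2 fold changes of 0.49 ± 0.07 and 0.52 ± 0.13 beside -1.67 ± 0.08 and -2.47 ± 0.14 by LPS. Gfi1 fell by 0.87 ± 0.17 and Icam1 by 0.37 ± 0.06, and both rose by LPS. Klf4 fell under both, by 0.65 ± 0.19 with CCM and by 0.76 ± 0.13 with LPS. These comparisons share the LPS libraries, so the signs of the 2 values of a gene are not independent. By list, 2 of 5 MAF and BACH factors tested fell, 3 rose and 4 fell of 19 other macrophage factors, 0 of 7 C/EBP genes were called, 2 of 10 ETS factors fell, 3 of 9 LPS receptor genes fell, 1 of 13 integrin genes fell, 1 rose and 1 fell of 11 genes of the CSF1R axis, and 0 of 3 adhesion receptors were called. Over all genes tested 4.15% were called as higher and 7.78% as lower, so most of these counts say little about the lists. The medians of the 8 lists were between -0.21 and 0.12, beside 0.01 over all genes tested. In KO none of the genes in these 8 lists was called, when 0.112% of all genes were.

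Without LPS, CCM changed none of the 8 genes in WT macrophages, where 0.057% of 14024 genes were called by edgeR and 1404 reached an unadjusted p below 0.05. These 8 calls became 247 by DESeq2, 255 with a replicate block, 377 with no filter on low counts, 16 without WT vehicle replicate 3, 2 and 1 without WT vehicle replicates 1 and 2, and 0 without any 1 of the 3 CCM libraries, where 920 to 1337 genes had an unadjusted p under 0.05. Cd14 had 356, 364 and 287 CPM with vehicle and 381, 411 and 397 CPM with CCM. The groups did not overlap, yet the log2 fold change was 0.23 ± 0.09 with an edgeR adjusted p of 0.429 and an adjusted p of 0.125 by DESeq2. Maf had 151, 152 and 156 CPM with vehicle and 142, 147 and 145 CPM with CCM, a log2 fold change of -0.10 ± 0.05 (edgeR adjusted p = 0.577). For Csf1r, Adgre1 and Itgam the 95% intervals of the log2 fold change were -0.11 to 0.14, -0.16 to 0.06 and -0.22 to 0.13.

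In unstimulated KO macrophages none of the 8 genes and 0 of 13799 genes (0%) were called by edgeR, with 333 genes at an unadjusted p under 0.05 and 24 called by DESeq2, none of them a member. Without KO replicate 6 edgeR called 141 genes, and the lowest adjusted p among the 8 was 0.188, for Cebpb. With the replicate number as a block, for which same-numbered libraries gave grounds here, 3.11% of all genes and 2 of the 8 were called. Itgam had 100 to 131 CPM with vehicle (median 119) and 75.0 to 114 CPM with CCM (median 104), and the CCM library was the lower in 6 of 6 pairs. Its blocked log2 fold change was -0.21 ± 0.05 (edgeR adjusted p = 0.0273). Cebpa had 489 to 815 CPM with vehicle (median 527) and 536 to 846 CPM with CCM (median 617), with the CCM library higher in 6 of 6 pairs and a blocked log2 fold change of 0.18 ± 0.04 (edgeR adjusted p = 0.0451). With the block and without KO replicate 6, these were -0.19 ± 0.04 and 0.20 ± 0.04, and Cd14 was called as well, at 0.25 (edgeR adjusted p = 0.0378).

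The levels of the 8 genes were not shown to differ between KO and WT macrophages. With vehicle 0 of 14385 genes (0%) and with LPS 0 of 13794 genes (0%) were called by edgeR, with 118 and 105 genes at an unadjusted p under 0.05, and DESeq2 called 1 gene in each, which was no member. Fewer genes lay under 0.05 than that threshold would give without any difference. The lack of calls therefore does not show equal levels. With vehicle the log2 differences (KO minus WT) ranged from -0.05 ± 0.24 for Adgre1 to 0.32 ± 0.36 for Cebpb, and with LPS from -0.04 ± 0.24 for Adgre1 to 0.25 ± 0.29 for Cebpb. Both extremes were the genes in which KO replicate 6 stood furthest from its group. Without that replicate the differences of Adgre1 were 0.08 ± 0.06 and 0.10 ± 0.06 and those of Cebpb -0.04 ± 0.14 and -0.04 ± 0.07, with vehicle and with LPS. Those of the 8 genes then lay between -0.07 and 0.11 with vehicle and between -0.04 and 0.10 with LPS.

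The 8 genes varied little between WT replicates and unequally between KO replicates. The coefficient of variation within a group was 1.52% to 12.6% in WT and 7.46% to 53.1% in KO, or 4.26% to 41.3% in KO without replicate 6. Relative to the median of the other KO libraries of the same treatment, KO replicate 6 had 0.358 to 0.456 times the CPM of Adgre1 and 0.613 to 0.749 times that of Csf1r over the 4 treatments. It had 1.67 to 1.95 times the CPM of Spi1, 2.29 to 2.67 times that of Cebpb, 1.25 to 1.46 times that of Cd14 and 1.09 to 1.58 times that of Cebpa. Itgam (0.712 to 0.971 times) and Maf (0.765 to 1.08 times) lay nearest to the others. The replicate therefore differed in the same direction in all 4 treatments for 7 of the 8 genes, low for Adgre1, Csf1r and Itgam and high for Cd14, Spi1, Cebpa and Cebpb. A constant direction was not particular to it. KO replicate 3 was low for Itgam in all 4 treatments (0.731 to 0.864 times), and KO replicate 1 for Csf1r (0.865 to 0.947 times). In KO replicate 6 the summed neutrophil markers were 1148 to 1215 CPM, against 441 to 711 CPM in WT and 426 to 1129 CPM in KO replicates 1 to 5. Its summed osteoclast markers were 660 to 1080 CPM, against 427 to 730 CPM in the other libraries. The part of these cell types, of RNA quality and of depth in its values was not tested.

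**Figure D5:**
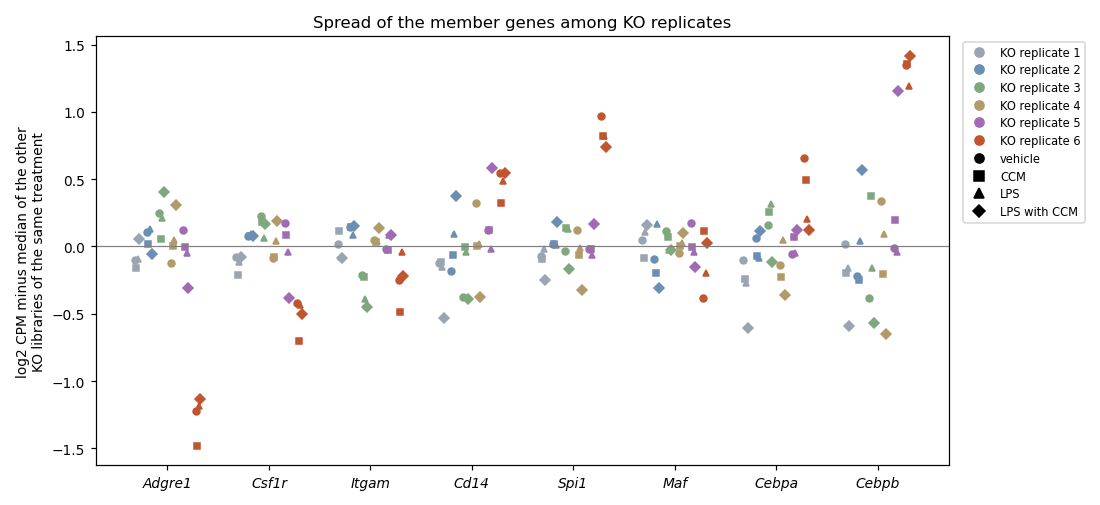
Log2 CPM of each KO library minus the median of the other KO libraries of the same treatment (vertical axis) for the 8 genes (horizontal axis), by replicate (colour) and treatment (marker shape). KO replicate 6 lies lowest for Adgre1 (-1.48 to -1.13) and highest for Cebpb (1.19 to 1.42), and the LPS with CCM library of replicate 5 is also high for Cebpb (1.16).

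After the mean of each group was taken off, several pairs of members still varied together or against each other. Adgre1 and Csf1r had a Pearson r of 0.94 over the 36 libraries, and 0.854 over the 32 without KO replicate 6, although their r with the group means left in was -0.01. Cd14 and Cebpb had an r of 0.893, and 0.838 without KO replicate 6, beside 0.926 with the group means left in. Adgre1 and Cebpb had an r of -0.926, and -0.712 without KO replicate 6, beside 0.541 with the group means left in. Adgre1 and Spi1, at -0.939, had only -0.338 without KO replicate 6, so that value rests on 1 replicate. The other values without KO replicate 6 still include the LPS with CCM libraries of KO replicates 2 and 5. Cebpb had 965 and 1449 CPM there, against 614 to 650 CPM in replicates 1, 3 and 4. Among replicates 1 to 5, Cd14 was highest and Adgre1 lowest in the same libraries. The r without those libraries was not computed. The libraries differed in depth and in mitochondrial share, and the part of depth and RNA quality in these r was not tested. The values are a description.

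For each member the 3 genes of the most similar profile over the 36 libraries were listed by the Pearson r of log2 CPM. They were Zc3h12c, Sppl2a and Rab10 for Adgre1 (r = 0.991 to 0.992), Dapk1, Nol4l and Lrp8 for Csf1r (0.927 to 0.947), Qpct, Mmp12 and Pdk1 for Itgam (0.817 to 0.837), and Ccl9, Ttc39c and H2-Q4 for Cd14 (0.993 to 0.995). Among the factors they were Snx20, Psmb8 and Tspo for Spi1 (0.992 to 0.994), Tent5a, Atp10a and Slfn4 for Maf (0.974 to 0.979), Tmem86a, Ypel3 and Cd300a for Cebpa (0.992 to 0.996), and Eva1b, Fth1 and Eif6 for Cebpb (0.983 to 0.987). After the group means were taken off, these r were still at least 0.967 for Adgre1 and 0.963 for Spi1, and they were 0.933 to 0.963 for Cebpb, 0.921 to 0.951 for Csf1r and 0.785 to 0.882 for Itgam. They were lower for Cebpa (0.606 to 0.821), Cd14 (0.635 to 0.884) and Maf (0.552 to 0.671). All these r include KO replicate 6, which stood apart within its groups. They were not computed without it, so how far they rest on that replicate was not tested. Itgam had the loosest company, and its profile was also the flattest of the 8.

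Several members overlap other annotated genes, and reads may be split between such genes because the counting's use of strand is not given in the sources used here. Cebpb overlaps Tmem189 on the other strand, which had 36.5% as many counts. Csf1r overlaps Hmgxb3, and Itgam, Maf and Cebpa each overlap a gene with at most 0.143% as many counts. Adgre1, Cd14 and Spi1 overlap none.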

How the data were processed

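Per the paper's methods, polyadenylated RNA gave paired-end reads. The authors cleaned these with fastp, mapped them by HISAT2 and summed them per gene by featureCounts (versions 2.0.5 and 1.5.0-p3, and the build mm10, per the submitters' processing notes). The deposited values used here are these raw counts per gene, not normalized, with a gene length column. None of the 36 count columns was set aside (0 left out). The authors' own tests were made in DESeq2, with 0.05 as the largest adjusted p. The strand setting is not given in the sources used here.

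Only the groups of a comparison entered its fit, in edgeR 4.0.16 in R 4.3.3 (filterByExpr, TMM, glmQLFit, glmQLFTest, two-sided), adjusted by Benjamini-Hochberg over all genes tested and called at 0.05. Interactions were terms of fits on the groups involved. CPM use TMM factors over all 36 libraries, and log2 CPM a prior count of 2. Alternatives were DESeq2 1.42.0, RLE and upper-quartile factors, total counts alone, no filter beyond 1 count, voom with quality weights (limma 3.58.1), all 36 libraries in 1 fit, the replicate number as a block, and leaving out libraries or replicates. The block without KO replicate 6, and the fits without KO replicates 2, 5 and 6, were chosen after seeing the data. The scripts were tested on simulated data.

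The members and the gene lists were chosen with earlier results of these data known. The genes named are the members, genes of the fixed lists, and per member the 3 genes with the highest r among genes with a mean log2 CPM of at least 1. Marker lists covered 10 cell types. The result of 1 listed gene is not reported here. Same-numbered libraries were judged to be paired where deviations from the group means correlated above 0.1 in each pair, which held for LPS in KO (0.299 to 0.829), CCM in unstimulated KO (0.338 to 0.842) and CCM under LPS in WT (0.151 to 0.36). The medians between unlike numbers were 0.173, 0.223 and -0.132 there. The main fits used no block in any comparison, also not in these, and the block entered only as an alternative. Of the 54532 genes, 23675 had 0 counts in every library, and 53499 had the coordinates of GENCODE M21. The median library had 19951421 counts, and the spread between replicates, not counting error, limits the precision at this depth.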

Additional observations from a re-analysis of the deposited data

Results flagged for a closer look

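In groups of 6 libraries, a library was picked out when its gap to the nearest other library was over 0.625 of the range of the group (Dixon's 95% value). Of the 32 groups tested (8 genes in 4 KO treatments) 14 held such a library, where chance would pick out about 1 in 20 groups, and 13 of the 14 were KO replicate 6. The 32 groups are not independent, since they come from the same 24 libraries.

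Among the markers and receptors, Adgre1 was lowest in KO replicate 6 at 346 CPM with vehicle, 270.3 CPM with CCM and 982 CPM with LPS. Csf1r was lowest there with LPS (1296 CPM), and Cd14 was highest there with LPS (3456 CPM). Itgam was the exception, as it was KO replicate 3 that had the lowest CPM with LPS (76.7).

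Among the factors, Spi1 was highest in KO replicate 6 in all 4 treatments, at 787 CPM with vehicle, 747.5 CPM with CCM, 1678 CPM with LPS and 1700 CPM with the combination. Cebpb was highest there in 3 treatments, at 487 CPM with vehicle, 588 CPM with CCM and 1455 CPM with LPS, and Cebpa at 815 CPM with vehicle. The part of RNA quality, cell composition and depth in these values was not tested.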

How the results depend on the processing

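Of the 96 values of members (8 genes in 12 comparisons), 25 were called under at least 1 setting, and none of these changed direction under any setting run. Of the other 71, never called, 39 changed sign under some setting. Over 361 alternatives to the 25 values, 327 stayed on their side of the threshold, 12 lost the call and 22 gained it.

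The counts of members called moved as follows. For LPS in WT the count of 8 became 6 in a fit of all 36 libraries. For LPS in KO the count of 7 became 8 with upper-quartile factors, total counts alone, voom and the replicate block, with Csf1r gained, and 6 with RLE factors or no filter, with Itgam lost. It was 6 to 8 when a replicate was left out. In this order, the calls over all genes were 6756, 7533, 9765, 9774, 6413 and 6717, against 6433 in the main fit. With a replicate left out they were 5429 to 9612. For CCM in unstimulated KO the count of 0 became 1 with voom (Cebpb), 2 with the replicate block and 3 with the block without KO replicate 6. The calls over all genes rose with it, from 0 to 299 of 13799, 429 of 13799 and 729 of 13899. For CCM under LPS in WT the count of 2 became 0 in a fit of all 36 libraries and was 1 to 2 when a library was left out. For CCM under LPS in KO the count of 0 became 1, Cebpa in each case, with DESeq2, voom, the replicate block, all 36 libraries, the block without KO replicate 6, and 0 to 1 when a replicate was left out. In this order, the calls over all genes were 180, 768, 777, 285, 304 and 0 to 170, against 15 in the main fit. For the LPS by CCM interaction in WT the count of members became 1, Csf1r, with DESeq2, total counts alone and voom. The calls over all genes were 696, 347 and 447 there, against 308. Outside these and the values given beside the results, the block changed no call. For comparisons whose numbers did not show pairing, same-numbered correlations were 0.0473 to 0.174 (LPS in WT), 0.0514 to 0.465 (CCM in unstimulated WT) and -0.1 to 0.808 (CCM under LPS in KO), and 3 of 3, 2 of 3 and 4 of 6 libraries matched best with their own number.

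Scaling moved both the levels and the split of calls. Total counts alone gave a median log2 change over all genes of -0.47 for LPS in WT in place of -0.05, and -0.44 in KO, and upper-quartile factors -0.23 and -0.24, so members should be read against that shift. With total counts 2551 genes were called higher and 8060 lower by LPS in WT, in place of 4441 and 4698, and with upper-quartile factors 3438 and 6099. In KO the split was 3060 and 3373, and became 1825 and 5708 with total counts and 2360 and 4396 with upper-quartile factors. For CCM under LPS in WT it was 564 and 1057, and became 1539 and 733 with total counts. For the LPS by CCM interaction in WT it was 69 and 239, and became 230 and 117 with total counts and 88 and 180 with upper-quartile factors. No member changed direction by LPS under these scalings. Itgam by LPS in KO lost its call with RLE factors (edgeR adjusted p = 0.0525) and without a filter (0.0866), and Csf1r and Itgam by LPS in WT lost theirs in the fit of all 36 libraries (0.169 and 0.105). Of 64 group means, 38 moved by more than 1 SD between TMM and total counts. The causes were not tested.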
